A study of Mus musculus with 12 samples.

Results

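The 10 neuropeptide precursor genes described here were examined across 12 RNA sequencing libraries of primary motoneuron cultures from FVB mice. The members were the rows of the deposited gene tables named Tac1, Sst, Npy, Penk, Pdyn, Calca, Calcb, Gal, Cck and Nts. All 10 names were found, each under 1 identifier, among the 39174 gene identifiers of the tables. The 4 groups, of 3 libraries each, were Smn-/-;SMN2 cultures with 0.5 µM R-Roscovitine (treated SMA), Smn+/+;SMN2 cultures with 0.5 µM R-Roscovitine (treated control), Smn-/-;SMN2 cultures without it (untreated SMA) and Smn+/+;SMN2 cultures without it (untreated control). Smn encodes the survival motor neuron protein, whose loss causes spinal muscular atrophy (SMA), and every group carried the human SMN2 transgene, which yields a reduced amount of that protein. R-Roscovitine blocks cyclin-dependent kinases and also slows the closing of Cav2 calcium channels at nerve terminals. The sources used here do not give the length of the exposure, the age of the cultures, or whether the libraries of a group came from separate animals or platings. The p-values therefore measure the spread between libraries only.

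Neuropeptides are made as precursor proteins, which are cut by proprotein convertases, trimmed and amidated on their way into dense-core vesicles, and released when a neuron fires and calcium enters. They then act on G protein-coupled receptors, more slowly and at a longer range than the fast transmitters. In the spinal cord most of these genes are known from interneurons and from the terminals of sensory neurons, whereas motoneurons are known for the calcitonin gene-related peptide encoded by Calca.

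Levels are given in FPKM, fragment values corrected for transcript length and for the size of the library, so that levels can be compared between genes. A rough estimate from the steps between low values put each library at 19.5 to 28.7 M reads. The search covered a preset range of steps, and only 35.8% to 39.2% of low values matched the chosen step. Smn1 was 5.04 to 7.35 FPKM in the treated SMA libraries, against 38.2 to 45.2 in the treated controls, and 6.11 to 8.58 in the untreated SMA libraries, against 30.9 to 51.2 in the untreated controls, as their labels say. The label motoneuron was set against marker genes. Of 13 motoneuron markers in the tables, 8 stayed below 1 FPKM in every library, among them Chat, the enzyme of acetylcholine synthesis, Slc5a7, the choline transporter, and the transcription factors Isl1, Isl2 and Lhx3. Mnx1, a transcription factor of motoneurons, was listed at 0 in every library. The other 5 were tested: Foxp1 at a mean of 24.9 FPKM, Etv4 at 11.6, Chodl at 7.95, Ret at 2.39 and Prph at only 0.78. Gad1, the enzyme of GABA synthesis, averaged 88.3 FPKM over the 12 libraries, Slc17a6, a vesicular glutamate transporter, 25.5 FPKM, and Slc6a5, the glycine transporter of inhibitory neurons, 22.2 FPKM. Among the 17 sensory neuron markers that were found, 12 stayed below 1 FPKM in every library, among them the nociceptor genes Scn10a, Scn11a, Scn9a, Trpv1 and Trpa1, with Mrgprd at 0. The other 5 were tested, and P2rx3 averaged 5.43, Pou4f1 4.29, Ngfr 2.39, Runx1 2.02 and Prdm12 only 0.69 FPKM. In such a mixture a smaller share of cells of a type and less RNA per cell cannot be told apart.

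The 10 precursors spanned a wide range. Npy, the precursor of neuropeptide Y, averaged 180.8 FPKM over the 12 libraries, followed by Sst, the somatostatin precursor, at 96.5 FPKM and Tac1, the precursor of substance P and neurokinin A, at 51.8 FPKM. Npy exceeded Sst and Sst exceeded Tac1 in all 12 libraries, and Tac1 exceeded Cck in 11. Cck, the cholecystokinin precursor, averaged 23.3 FPKM, Calca, which gives rise to calcitonin and to the calcitonin gene-related peptide, 12.0 FPKM, and Penk, the proenkephalin gene, 8.28 FPKM. Cck was above Calca in 10 libraries, whereas Calca was above Penk in only 7, so that the order of these neighbours was not steady. Below 3 FPKM came Nts (neurotensin, 2.69), Gal (galanin, 2.53) and Pdyn (prodynorphin, 1.63), with Nts above Gal in 7 libraries and Gal above Pdyn in 9. Npy alone made up between 40.7% and 55.0% of the summed FPKM of the 10 genes in a library. Calcb, which encodes the second calcitonin gene-related peptide, was listed at 0 in 3 libraries and reached at most 0.298 FPKM. Calcb was the single member that did not pass the filter on low values (at least 1 FPKM in at least 3 libraries), so that 9 of the 10 members were tested.

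**Figure D1:**
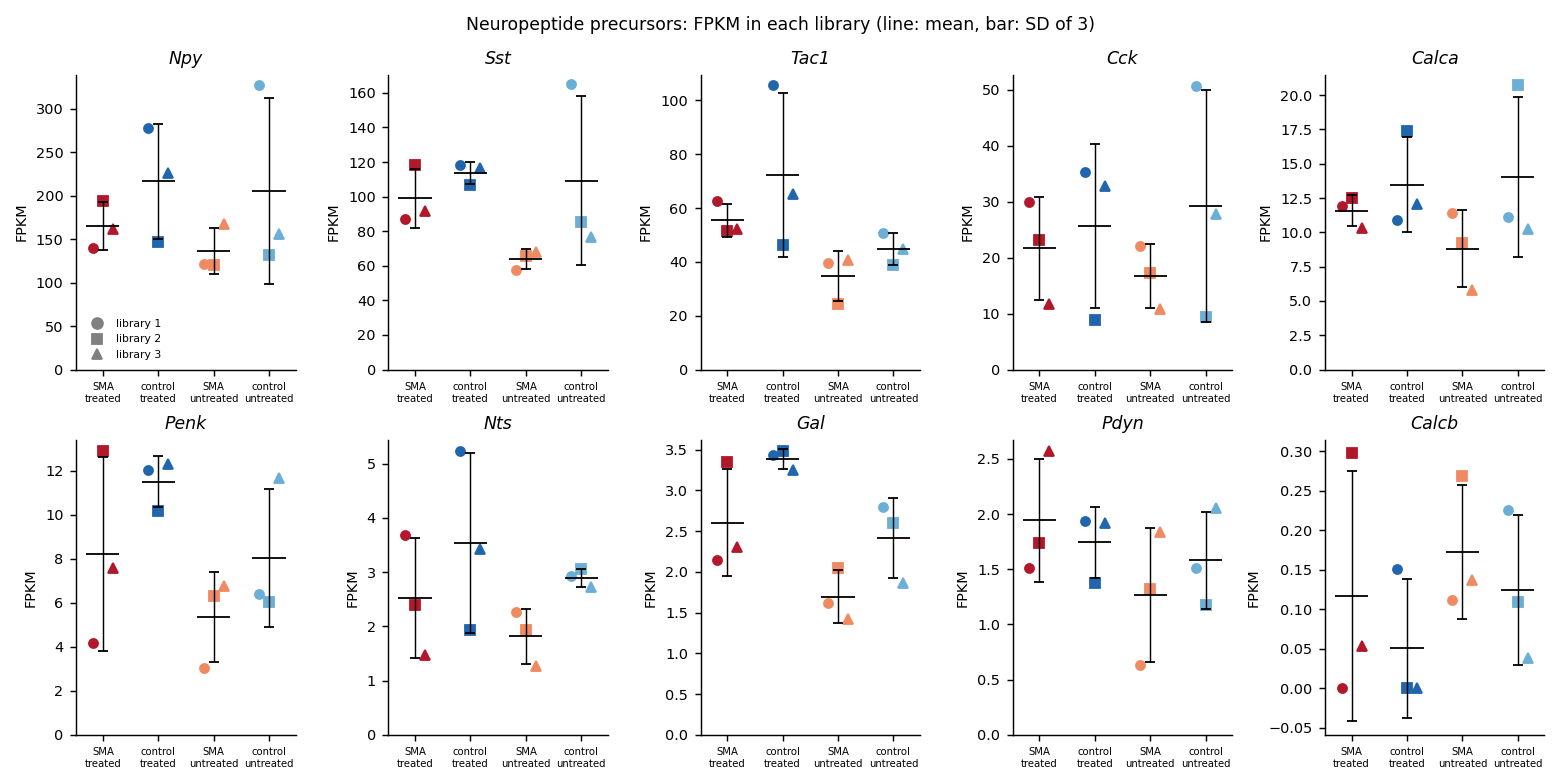
FPKM of the 10 precursors in each library, 1 panel per gene with its own vertical axis starting at or just below 0, groups along the horizontal axis. Symbols are single libraries (circle, square and triangle for libraries 1, 2 and 3), the horizontal line is the group mean and the bar the SD of 3 libraries. The treated SMA libraries lay above the untreated SMA libraries for Tac1, Sst and Gal, and untreated control library 1 stood above all other untreated libraries for Npy, Sst, Tac1, Cck and Gal.

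The positions below are on GRCm38, as the tables give them. The Tac1 gene lies on the plus strand of chromosome 6 (7554879 to 7565834) and Npy on the same strand of that chromosome (49822710 to 49829507). Sst lies on the minus strand of chromosome 16 (23889581 to 23890844), Cck on the minus strand of chromosome 9 (121489825 to 121495689), Calca on the minus strand of chromosome 7 (114631480 to 114636357) and Gal on the minus strand of chromosome 19 (3409919 to 3414472). Penk, on the minus strand of chromosome 4 (4133531 to 4138819), is overlapped by A830012C17Rik on the opposite strand. The sources used here do not say whether strand was used in counting, so reads of Penk and of that gene cannot be told apart. Gene-level values likewise do not separate the calcitonin and peptide transcripts of Calca. All 10 genes are protein-coding.

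Precursor genes are textbook targets of the cyclic AMP response element, the site bound by CREB, which neuronal activity and calcium entry engage. RefSeq promoter windows (GRCm38.p6, 250 bases before to 50 after the annotated start) were found for 8 members, and Penk and Calcb had none in the table. The full element TGACGTCA and the 7-base form TGCGTCA were searched on both strands of each window; neither contains the other, and both were chosen after these promoters had been read. One or the other occurred in the windows of 4 members and in 3.23% of all 32851 promoter windows of the mouse table. The occurrence in members follows in part from that choice of letters, so it does not show that precursors hold them more often. Binding by CREB was not tested. The stretches that hold it are shown because these members include Tac1 and Sst, and each is 30 bases long, read 5′ to 3′ on the strand of the gene, with the matched letters in capitals.
Tac1, chr6:7554851-7554880, plus strand: ttccctaaaatTGCGTCAtttcgaacacaa
Sst, chr16:23890874-23890903, minus strand: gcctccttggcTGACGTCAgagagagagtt
Calca, chr7:114636404-114636433, minus strand: aagcacagaggTGACGCAatctgtctgggg
Cck, chr9:121495725-121495754, minus strand: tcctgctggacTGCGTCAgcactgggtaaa
The full element stood in Sst alone of these 4, 40 bases before the RefSeq start. Tac1, Cck and Calca held the 7-base form, 192, 42 and 58 bases before the RefSeq start, in Calca as the reverse complement. The RefSeq start of Tac1 lies inside the gene as the tables give it, and the Tac1 stretch ends 1 base past the start in the tables. The full element occurred in 1.55% of all windows and the 7-base form in 1.75%. The windows of Npy, Pdyn, Gal and Nts held neither string of letters.

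With R-Roscovitine the precursors were on the whole higher, although none passed the test. In SMA cultures all 9 tested members were higher with treatment than without, by 0.28 (Npy) to 0.69 (Tac1) on the log2 scale, with a median of 0.40 against 0.00 over all 15114 tested genes. In control cultures 8 of 9 were higher, with a median of 0.17 against 0.00 over all genes, and Cck was lower by -0.09. Calca was among the 8 at only 0.006. Leaving out 1 library changed the sign of Sst, Npy, Calca, Cck and Nts in control in at least 1 run. Differences were tested with limma on log2(scaled FPKM + 1), a scale that understates changes of low genes, with Benjamini-Hochberg adjusted p over all genes under 0.05 as the threshold. No member passed in either genotype (adjusted p = 0.999 for each in SMA and 0.9997 for each in control), and 0.0% of all genes passed in SMA and 0.0% in control cultures. At unadjusted p under 0.05 stood Tac1, Sst and Gal in SMA, where 2.49% of all genes did, and Tac1 and Gal in control, where 1.36% did.

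Tac1 had 62.5, 51.6 and 52.1 FPKM in the treated SMA libraries 1, 2 and 3, against 39.4, 24.2 and 40.5 FPKM in the untreated ones. All 3 treated libraries lay above all 3 untreated ones, and the log2 difference was 0.69 ± 0.26 (SE), or 0.44 without untreated SMA library 2. In control cultures Tac1 had 105.5, 46.1 and 65.0 FPKM with treatment, against 50.6, 38.7 and 44.8 FPKM without. There the groups overlapped, since treated library 2 lay below untreated library 1, and the difference was 0.63 ± 0.26 (SE), or 0.32 without treated control library 1. The treatment difference in SMA minus that in control was 0.06 ± 0.37 (SE) for Tac1, with adjusted p = 1.0 in limma.

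Sst had 86.9, 118.4 and 91.8 FPKM in the treated SMA libraries, against 57.7, 65.8 and 68.2 FPKM in the untreated ones. The groups did not overlap, and the log2 difference was 0.61 ± 0.22 (SE). In control cultures Sst had 118.1, 106.6 and 116.7 FPKM with treatment, against 165.2, 85.4 and 76.9 FPKM without. The untreated libraries there lay on both sides of the treated ones, with library 1 above all of them and libraries 2 and 3 below all of them, and the difference was 0.17 ± 0.22 (SE), or 0.50, 0.06 and -0.04 without untreated control libraries 1, 2 and 3. The treatment difference of Sst in SMA minus that in control was 0.44 ± 0.31 (SE), which did not pass limma's test (adjusted p = 1.0), and it was 0.12 without untreated control library 1.

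Gal had 2.15, 3.35 and 2.30 FPKM in the treated SMA libraries, against 1.61, 2.05 and 1.42 FPKM in the untreated ones, a log2 difference of 0.41 ± 0.17 (SE). In control cultures Gal had 3.43, 3.48 and 3.25 FPKM with treatment, against 2.79, 2.60 and 1.86 FPKM without, a difference of 0.39 ± 0.17 (SE). Galanin RNA was low throughout, yet in both genotypes the lowest treated library lay above the highest untreated one. At this level the interval that the authors' quantification gives for a single value reached 24.9% to 41.9% of the value to each side, which covers counting and assignment error only. Groups without overlap, treated above untreated, were found for Tac1, Sst and Gal in SMA, where 5.93% of all genes did so, and for Gal in control, where 2.0% did. With 3 libraries a group the exact permutation test gives no p below 0.1, and 0.1 is what it gave for those values (two-sided).

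The treated and untreated libraries of 1 number and genotype deviated together from their group means, so the 6 treated-minus-untreated differences were also read as pairs. Tac1 was higher with treatment in 6 of 6 pairs, by 0.65, 1.07 and 0.35 in SMA pairs 1, 2 and 3 and by 1.10, 0.26 and 0.55 in control pairs 1, 2 and 3 on the log2 scale. Penk was also higher in 6 of 6 pairs, by 0.36, 0.93 and 0.14 in SMA and by 0.86, 0.68 and 0.09 in control. The same held for Gal, by 0.27, 0.52 and 0.44 in SMA and by 0.26, 0.33 and 0.58 in control. Across all tested genes 2.53% were higher in all 6 pairs. A count of 6 of 6 in itself sets the exact two-sided sign-flip p at 0.03125, the smallest over 6 pairs. For the other tested members that exact p ran from 0.0625 (Pdyn) to 0.4375 (Cck).

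**Figure D2:**
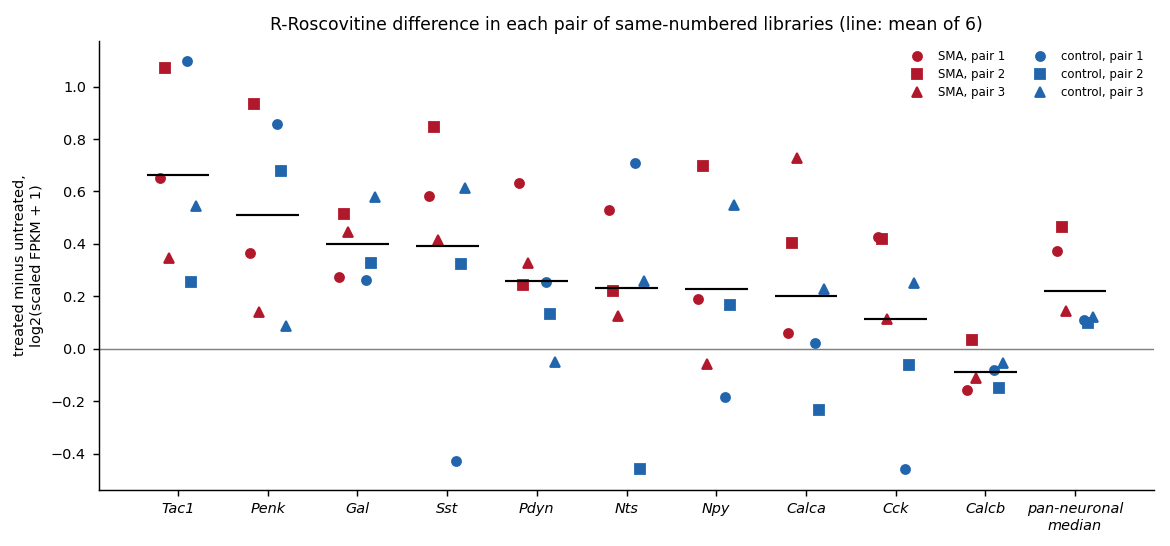
Treated minus untreated, in log2(scaled FPKM + 1), for each of the 6 pairs of same-numbered libraries of 1 genotype, with genes along the horizontal axis and the median of 14 pan-neuronal genes at the right. Symbols are single pairs (red SMA, blue control) and the line is the mean of 6. All 6 pairs were above 0 for Tac1, Penk and Gal, while Sst, Npy and Cck were below 0 in control pair 1.

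A fit within the 6 pairs over both genotypes was added after the data had been seen. It gave Tac1 a difference of 0.66 ± 0.12 (SE), the lowest unadjusted p of all 15114 tested genes (0.0002377), but an adjusted p of 0.8196 in limma. Gal (0.40 ± 0.09) was in place 10, Penk (0.51 ± 0.12) in place 29 and Sst (0.39 ± 0.14) in place 292 of that order. The remaining members stood between place 617 (Pdyn) and place 5663 (Cck). No gene passed the adjusted threshold, 0.0% of those tested, and 5.84% of all genes and 5 of the 9 members were at unadjusted p under 0.05. Leaving out each pair in turn kept the difference of Tac1 between 0.57 and 0.74, and the lowest adjusted p it then reached was 0.193, without control pair 1.

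For the other members the treated and untreated libraries overlapped in both genotypes. Npy had 139.3, 194.4 and 161.6 FPKM in treated SMA libraries, against 121.9, 120.1 and 167.3 FPKM in untreated ones, and was higher in 2 of 3 SMA pairs. In control cultures Npy had 277.9, 146.7 and 225.6 FPKM with treatment, against 327.8, 131.4 and 155.9 FPKM without. Both treated and untreated control libraries of number 1 were the highest of their group. Penk had 4.17, 12.9 and 7.59 FPKM in treated SMA libraries, against 3.02, 6.32 and 6.75 FPKM in untreated ones. In control cultures Penk had 12.0, 10.2 and 12.3 FPKM with treatment, against 6.42, 6.03 and 11.7 FPKM without. In both genotypes the Penk groups overlapped. Pdyn, Calca and Nts were each higher in all 3 SMA pairs and in 2 of 3 control pairs, and Cck in all 3 SMA pairs and in 1 control pair. Being higher in all 3 SMA pairs, which 8 of the 9 tested members were and Npy was not, was found for 19.0% of all genes. Higher in all 3 control pairs were 3 of the 9, Tac1, Penk and Gal, against 10.6% of all genes.

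Genes that mark neurons as a whole were also higher with treatment. All 14 pan-neuronal genes, among them Map2, Tubb3, Syn1 and Gap43, were higher with treatment averaged over genotype, with a median of 0.21 on the log2 scale, none past the threshold. Their median was 0.37, 0.46 and 0.14 in SMA pairs 1, 2 and 3 and 0.11, 0.10 and 0.12 in control pairs 1, 2 and 3. Tac1 exceeded that median in 6 of 6 pairs, by 0.44 ± 0.31 (SD, n = 6) on average, and Gal and Sst in 5 of 6. Npy, Nts and Penk exceeded it in 3 pairs, Pdyn in 4 and Calca and Cck in 2. The log2 scale understates changes of low genes, so the counts for Gal, Nts and Pdyn may be too low beside that of Tac1. The share of all genes above that median in 6 of 6 pairs was not counted. Interneuron markers were higher with treatment in 20 of 21 tested genes, with a median of 0.21, again none past the threshold. Summed pan-neuronal FPKM was 1069 to 1366 in treated and 930 to 1082 in untreated SMA libraries, and 1220 to 1791 in treated and 1132 to 1692 in untreated controls. Averaged over genotype, 14 of 15 tested progenitor markers were lower with treatment, with a median of -0.09, and 10 of 12 astroglial markers, with a median of -0.12, none past the threshold. The tested motoneuron markers were higher in 2 of 5 genes and the sensory neuron markers in 2 of 5. The part of any of these markers in the precursor differences was not tested.

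Between the genotypes the precursors were on the whole lower in SMA cultures, again with none past the test. Without treatment all 9 tested members were lower in SMA than in control cultures, by -0.19 (Pdyn) to -0.64 (Sst) on the log2 scale, with a median of -0.45 against -0.01 over all genes. With treatment 8 of 9 were lower, with a median of -0.28 against -0.02 over all genes, and Pdyn was higher by 0.10. No member passed limma's test, with adjusted p from 0.2534 (Sst) to 0.717 without treatment and from 0.4962 (Gal) to 0.9611 with it. Among all genes 0.00662% passed in each of these comparisons, Smn1 alone in both. At unadjusted p under 0.05 stood 1 of the 9 members (Sst) without treatment, where 14.0% of all genes did, and none with treatment, where 12.9% did.

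Untreated SMA cultures averaged 63.9 ± 5.5 FPKM of Sst, and untreated controls 109.2 ± 48.7 FPKM (SD, n = 3 each), and the groups did not overlap. The log2 difference was -0.64 ± 0.22 (SE), and it was -0.31 without untreated control library 1, the library with 165.2 FPKM. Nts also did not overlap, with 2.26, 1.92 and 1.27 FPKM in untreated SMA libraries, against 2.92, 3.05 and 2.73 FPKM in untreated controls. The Nts difference was -0.45 ± 0.27 (SE). Across all genes 10.1% were lower in untreated SMA cultures without overlap, and the exact permutation test gave p = 0.1 for both genes, its smallest value. For Npy the difference was -0.44 with untreated control library 1 and -0.06 without it, and for Cck -0.50 with it and 0.01 without it.

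Treated SMA cultures averaged 55.4 ± 6.2 FPKM of Tac1 and treated controls 72.2 ± 30.4 FPKM, while untreated SMA cultures averaged 34.7 ± 9.1 FPKM and untreated controls 44.7 ± 6.0 FPKM (SD, n = 3 each). The log2 differences were -0.28 ± 0.26 and -0.34 ± 0.26 (SE). The first was 0.02 without treated control library 1 and -0.55 without treated control library 2, and the second -0.09 without untreated SMA library 2. Calca had 11.9, 12.5 and 10.3 FPKM in treated SMA libraries, against 10.9, 17.4 and 12.1 FPKM in treated controls. In untreated SMA libraries the Calca values were 11.4, 9.24 and 5.79 FPKM, against 11.1, 20.8 and 10.3 FPKM in untreated controls. The groups overlapped at both conditions, with control library 2 the highest of each. Cck ranged from 10.8 to 29.99 FPKM in SMA and from 8.82 to 50.6 FPKM in control libraries over both conditions, and control library 2 was low at both, with 8.82 FPKM treated and 9.32 FPKM untreated. Pdyn lay between 0.63 and 2.58 FPKM in SMA and between 1.18 and 2.05 FPKM in control libraries, so that the groups overlapped throughout.

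**Figure D3:**
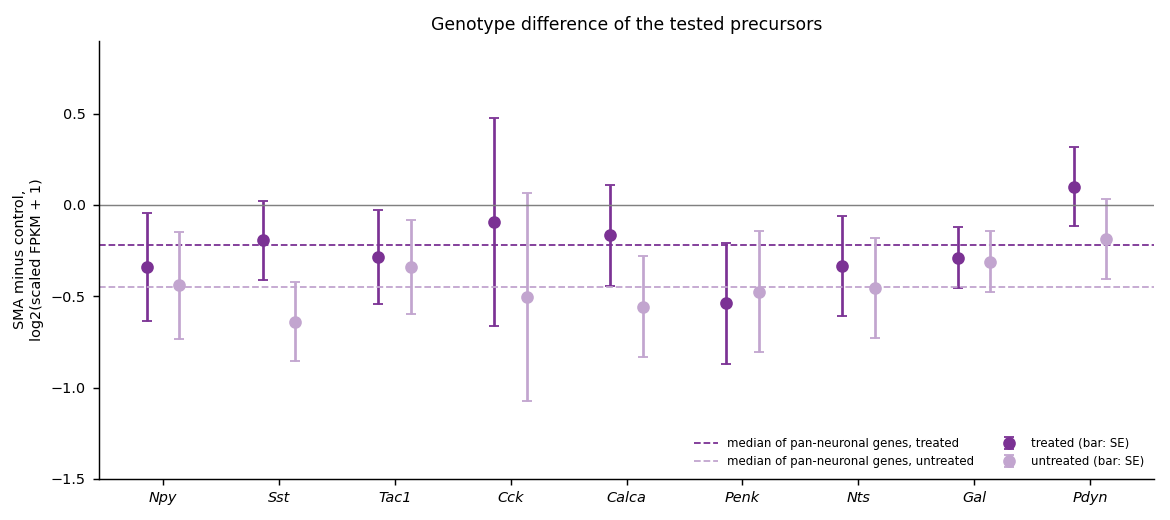
SMA minus control in log2(scaled FPKM + 1) for the 9 tested precursors, ordered by level, with the SE of the fit as the bar, dark for treated and light for untreated cultures. Dashed lines are the medians of 14 pan-neuronal genes. Members lay on both sides of these lines, 5 of 9 below the line in each condition.

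Averaged over treatment, the 9 members were lower in SMA by -0.04 (Pdyn) to -0.51 (Penk), with a median of -0.36, and Sst had the lowest adjusted p, 0.1324 in limma. At unadjusted p under 0.05 stood 3 of the 9 members (Sst, Gal and Penk), where 23.0% of all genes did. In this fit 4.42% of all genes passed, but it takes the treated and untreated library of a pair as independent. With 1 mean per genotype and number Smn1 was the only gene past the threshold, and 0 members passed in either form. Neuronal and glial markers differed as well. The 14 pan-neuronal genes were all lower in untreated SMA cultures, with a median of -0.45, and 11 of 14 were lower in treated ones, with a median of -0.22. Summed astroglial markers were 417 to 961 FPKM in treated SMA libraries, against 342 to 426 FPKM in treated controls, and 586 to 1151 FPKM in untreated SMA libraries, against 342 to 449 FPKM in untreated controls. Of the 12 tested astroglial markers 11 were higher in SMA at both conditions, with Mlc1 and Gfap among the 7 past the averaged threshold and S100b below 1 FPKM in every library. Of the 15 tested progenitor markers 13 were higher in SMA at both conditions, and 7 passed in the averaged fit, among them Sox1, Sox2 and Olig2. Of the 5 tested motoneuron markers 4 were lower in the averaged fit, and Chodl passed (-1.08, adjusted p = 0.03369 in limma), while of the 5 sensory neuron markers 3 were lower and none passed. The part of these markers in the precursor differences was not tested.

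The genes around the precursors were grouped by role, from lists chosen with earlier results of these data known. In the 4 comparisons within a treatment or a genotype, no gene of these lists passed. The calls that follow are from the fit averaged over treatment, SMA minus control, and none of them passed with 1 mean per genotype and number. Over all tested genes 4.42% passed this fit, in both directions together, 51.6% were lower in SMA, and the median was -0.01. Of 14 other tested precursors 10 were lower in SMA and 4 higher, with a median of -0.27. Among them 2 passed as lower in SMA, and 1, Rln1, the relaxin gene, as higher. Adcyap1, the precursor of the pituitary adenylate cyclase-activating peptide, averaged 7.36 ± 3.96 FPKM in treated SMA cultures against 15.2 ± 4.94 FPKM in treated controls, and 3.91 ± 1.59 FPKM in untreated SMA cultures against 11.5 ± 3.43 FPKM in untreated controls (SD, n = 3 each). Its averaged log2 difference was -1.19 ± 0.28 (SE, adjusted p = 0.03855 in limma). Pnoc, the precursor of nociceptin, differed by -0.65 ± 0.15 (SE, adjusted p = 0.03369) and Rln1 by 0.85 ± 0.21 (SE, adjusted p = 0.03956).

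Of 21 tested granins and dense-core vesicle genes 21 were lower in SMA averaged over treatment, with a median of -0.35, and 6 passed: Scg2, Chgb, Vgf, Ptprn, Rab3a and Tmem163. Scg2, a secretogranin of the vesicle core, averaged 46.2 ± 11.9 FPKM in treated SMA cultures against 82.4 ± 15.6 FPKM in treated controls, and 37.1 ± 8.3 FPKM in untreated SMA cultures against 67.0 ± 8.5 FPKM in untreated controls (SD, n = 3 each). The averaged differences were -0.82 for Scg2, -0.81 for Chgb, another granin, and -0.96 for Vgf, a neurotrophin-induced precursor of secreted peptides. Scg5, a chaperone of the convertase PC2 and the most abundant gene of the list at 146.5 FPKM, differed by -0.05. Of 15 processing enzymes 2 passed as lower, the carboxypeptidase Cpe by -0.37 and the convertase Pcsk1 by -0.90, the second at a mean of only 1.56 FPKM. Pam, which amidates peptides, differed by -0.44 without passing. With R-Roscovitine 20 of the 21 granins and vesicle genes were higher averaged over genotype, with a median of 0.20, and the processing enzymes had a median of -0.02, with no call in either list.

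Of 30 listed receptors of the peptides 29 were found, of which 16 were tested and 13 stayed below 1 FPKM in every library, among them Tacr2, which binds neurokinins, Sstr3, Sstr4 and Sstr5 for somatostatin, Npy2r and Npy5r for neuropeptide Y and the opioid receptors Oprd1 and Oprk1. Tacr1, the receptor of substance P, averaged 5.84 FPKM over the 12 libraries and Tacr3 1.36 FPKM, and the somatostatin receptors Sstr2 and Sstr1 averaged 1.76 and 1.34 FPKM. Npy1r, a receptor of neuropeptide Y, averaged 4.63 ± 2.42 FPKM in treated SMA cultures against 10.3 ± 2.96 FPKM in treated controls, and 4.49 ± 2.32 FPKM in untreated SMA cultures against 8.54 ± 0.59 FPKM in untreated controls (SD, n = 3 each). Its averaged difference, -0.97 ± 0.26 (SE), did not pass (adjusted p = 0.05143 in limma). Ntsr2, a neurotensin receptor, was the single receptor that passed, higher in SMA by 0.70 ± 0.18 (SE, adjusted p = 0.04711). Of the 10 tested peptidases none passed, and Mme, the enzyme neprilysin that degrades substance P and enkephalins, differed by 0.44 ± 0.17 (SE). With R-Roscovitine the receptors had a median of 0.03 and the peptidases of -0.01.

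**Figure D4:**
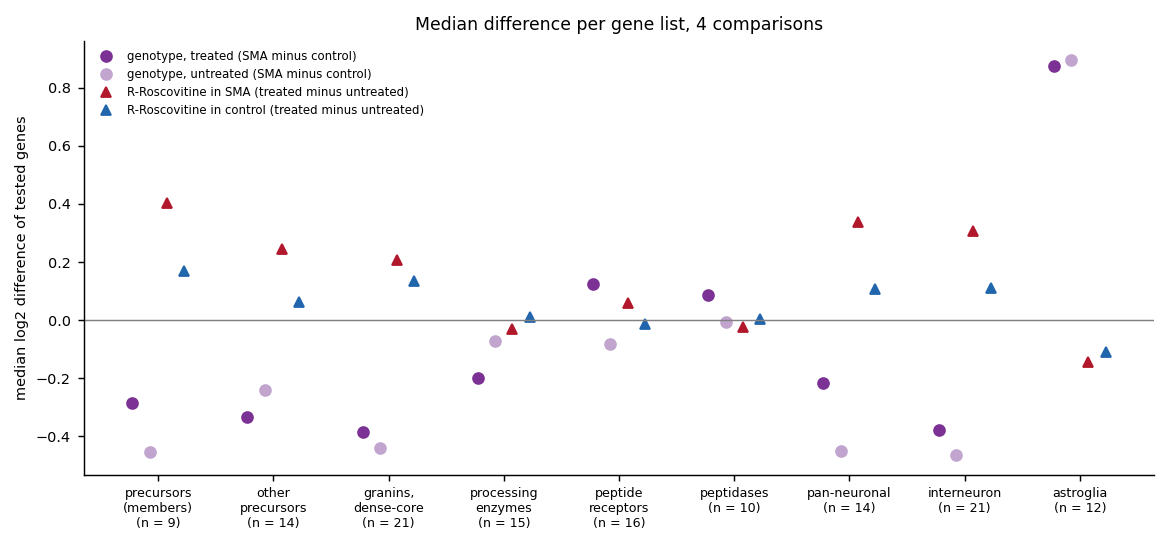
Median log2 difference of the tested genes of 9 gene lists in 4 comparisons, circles for SMA minus control (dark treated, light untreated) and triangles for treated minus untreated (red SMA, blue control), with the number of tested genes under each list. The precursors, other precursors, granins, pan-neuronal and interneuron lists had medians below 0 by genotype and above 0 by treatment, and the astroglial list had medians above 0 by genotype. The untreated and treated groups are shared between circles and triangles.

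Genes induced by neuronal activity were counted as well. Of 22 tested genes 19 were higher with R-Roscovitine in SMA, with a median of 0.16, where all 14 pan-neuronal genes had a median of 0.34. In control 12 were higher, with a median of 0.02. Averaged over genotype 13 of 22 were higher, with a median of 0.06 against 0.01 over all genes. None passed the threshold. Fos averaged 10.5 ± 6.5 FPKM in treated SMA cultures against 48.7 ± 38.0 FPKM in treated controls, and 9.26 ± 5.70 FPKM in untreated SMA cultures against 47.2 ± 37.1 FPKM in untreated controls (SD, n = 3 each). Both the mean and the SD of this immediate early gene were higher in control than in SMA libraries at both conditions. The SD in FPKM therefore do not compare the spread relative to the level. By genotype, 18 of the 22 were lower in treated SMA than in treated control cultures, with a median of -0.42, and 18 of 22 in untreated ones, with a median of -0.64. Averaged over treatment 19 of 22 were lower, with a median of -0.56 against -0.01 over all genes. In that average Atf3 passed as lower in SMA (-0.89) and Nr4a3 as higher (0.69), in the fit whose calls other than Smn1 were absent with 1 mean per genotype and number.

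Across the 12 libraries the members varied together to a limited degree. Of the 36 pairs of tested members 32 had a positive Pearson r of log2(scaled FPKM + 1), with a median of 0.42, from -0.35 for Pdyn with Calca to 0.84 for Sst with Npy. These 12 points share 4 groups and 6 pairs, and the values are a description. The genes named next were picked for the highest r among all tested genes, and that choice by itself yields high values. The genes whose pattern was most like that of Tac1 were Ctxn2 (r = 0.95), Cadm2 (0.93) and St8sia5 (0.90). For Sst they were Scrt1, Rnf208 and Dos (each 0.96), and for Npy Rbfox3 (0.95) and Cacng4 (0.94). For Cck they were Gm2694 (0.96), Tmem150c (0.95) and Calb1 (0.91), and for Nts Fam21, Lbx1 and Glrb (each 0.92). Gal was closest to Hoxb5 (0.91), Klhl18 and Hdac6 (each 0.89), and Penk to Gm3650 (0.92), Cnot4 (0.91) and Cpox (0.90). Pdyn was closest to Wbscr16, Exog (each 0.90) and Fnbp4 (0.88), and Calca to Rnaseh1 (0.90), Col6a1 (0.89) and Col6a2 (0.88).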

How the data were processed

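Nucleospin-extracted total RNA was turned into libraries with a Lexogen mRNA-Seq kit (V2), per the labels' protocols. Reads were handled with Trim Galore 0.4.0, FastQC 0.10.1 and Cufflinks 2.2.1 on GRCm38, per the submitters' processing notes. The authors deposited FPKM per gene for each library, normalised for transcript length and depth, with an interval and a status, which was OK for every member. Counts were not recovered, since 35.8% to 39.2% of low values were whole reads within 0.01. Mitochondrially encoded genes took 17.7% to 23.7% of the FPKM sum.

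From these values, FPKM were scaled by median-of-ratios factors (0.97 to 1.04) and transformed to log2(scaled FPKM + 1). Genes at 1 FPKM or more in at least 3 of 12 libraries, 15114 in all, were tested two-sided with limma 3.58.1 in R 4.3.3 (eBayes with trend), fitting 4 group means to all 12 libraries, at a Benjamini-Hochberg adjusted p under 0.05. Tables and figures used Python 3.11.15, pandas 2.3.3, scipy 1.17.1 and matplotlib 3.10.9. The procedure was run on simulated independent libraries, without deviations shared by pairs and with changes larger than any member difference here. That run says nothing of differences of the size seen here. Replicate numbers paired treated with untreated libraries (correlation of deviations 0.222 to 0.574 in all 6 pairs), a hint from the data and not from the labels. Gene positions are 1-based, and promoter stretches are from RefSeq. The members, the lists and their tests were chosen with earlier results of these data known. The rule for named genes took all members, the 4 most abundant genes of each list and any past the threshold, the 3 genes most like each member, and Smn1; only some are printed, a few are not reported here, and Cartpt and genes named as low or near 0 were chosen after their values were seen. The pathway and cell type lists covered other precursors, granins and vesicle genes, processing enzymes, receptors, peptidases, activity-induced genes, and neuronal and glial markers.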

Additional observations from a re-analysis of the deposited data

How the results depend on the processing

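No member passed the threshold under any alternative run (0 of 468 values under other settings and 0 of 606 with 1 library left out), and 463 and 585 of these kept their direction. Genes called by genotype without treatment were 2 with a pseudocount of 0.1 or a common FPKM sum without mitochondrially encoded genes, 354 with library weights and 301 with the replicate block, against 1. With treatment they were 12 with weights and 220 with the block, against 1. Averaged over treatment they were 1 without the filter, 1953 with weights, 1743 with the block and 1 with a mean per genotype and number, against 668. The genotype numbers are not shown to pair SMA with control libraries (correlations -0.0535 to 0.28), and the block changed no call of a member or by treatment. The interaction gave 1 gene without the filter, against 0. With 1 library left out the counts were 1 to 6 untreated, 1 to 197 treated, 0 to 1 for the interaction and 6 to 1344 averaged, the extremes without treated SMA library 2 (6, 197 and 1344) and without untreated SMA library 3, treated SMA library 1 or treated control library 1 (6 each). Reversed values were Cck untreated by genotype with weights (0.18), Calca by treatment in control without scaling (-0.0181) or with weights (-0.36), Cck there with weights (0.73) and Pdyn averaged with weights (0.0661). With 1 library left out, genotype values that changed sign ran from -0.37 to 0.0249 for Pdyn and -1.12 to 0.00987 for Cck untreated, from -0.55 to 0.0235 for Tac1, -0.0471 to 0.20 for Pdyn, -0.30 to 0.033 for Calca and -0.69 to 0.27 for Cck treated, and from -0.14 to 0.0626 for Pdyn averaged. By treatment in control they ran from -0.0444 to 0.50 for Sst, -0.0606 to 0.56 for Npy, -0.19 to 0.33 for Calca, -0.70 to 0.51 for Cck and -0.0931 to 0.44 for Nts. The cause was not tested. Without the replicate block, the R-Roscovitine fit over both genotypes (chosen after seeing the data) had 0 genes called and 260 at unadjusted p under 0.05, against 0 and 883. Leaving out small RNA genes, also chosen after seeing the data, gave 723 averaged. Summing identifiers of a symbol could not give another value, since each member has 1. Depth and 3 libraries a group limit the low members, where the interval of 1 value reached 51.8% of it for Pdyn.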

Other observations

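Another pair of precursors stood near Tac1 in the order of all 15114 tested genes by unadjusted p for R-Roscovitine within the 6 pairs, and both were named for their values. Cartpt, the precursor of the cocaine- and amphetamine-regulated transcript peptides, was in place 2, and Adcyap1 in place 6. Cartpt averaged 11.1 ± 4.4 FPKM in treated and 6.25 ± 1.97 FPKM in untreated SMA cultures, and 11.7 ± 3.2 FPKM in treated and 8.00 ± 1.77 FPKM in untreated control cultures (SD, n = 3 each). It was higher with treatment in 6 of 6 pairs, by 0.37 to 1.17 on the log2 scale and by 0.60 ± 0.11 (SE) in the fit. Adcyap1 was higher in 6 of 6 pairs, by 0.27 to 0.96 and by 0.54 ± 0.11 (SE). Neither passed limma's adjusted threshold (adjusted p = 0.8196 for both). Of the 14 tested precursors of that list 11 were higher with treatment and 3 lower, with a median of 0.11 and none past the adjusted threshold. By size of the difference Adm2 (0.38), Grp (0.33) and Pnoc (0.26) came next. Each was at unadjusted p under 0.05 in limma, as were 5.84% of all genes. Adm2 averaged only 0.94 FPKM, with 0 in its lowest library, and Grp was higher in 4 of 6 pairs. Apln, Pthlh and Nppc were near 0, at -0.02, 0.04 and 0.07. Most precursors of the list were low: 31 of the 50 in the tables stayed below 1 FPKM in every library, among them Tac2, Vip, Crh, Trh and Avp, and Oxt was listed at 0 in every library.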
